A study of Mus musculus with 2 samples.

Results

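The type I interferon response genes described here are 38 mouse genes listed by symbol as known targets of interferon. The list itself uses no measured value, though it was drawn up with earlier results of these data known. Of these, 36 were found among the 32285 genes of the deposited tables, and Mx1 and Mx2 are not analysed here. The 36 genes lie on 14 chromosomes, with the 4 Ifit genes together on chromosome 19, the 5 Oas and Oasl genes on chromosome 5 and the 4 genes of the PYHIN family on chromosome 1. The cells came from mouse spleen, were stored frozen and alive, and were sorted by flow cytometry as CD45.2+CD11b+, where CD45.2 is a variant of the leukocyte antigen CD45 and CD11b is an integrin subunit of myeloid and some lymphoid cells. One group is labelled Low B12 and the other High B12, with 1 single-cell 3′ RNA library each, and the series title places them in a study of vitamin B12, gut dysbiosis and Tet2-deficient blood formation. The labels give no genotype, strain, age, dose or number of mice, so which of these the groups share or differ in is not known.

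With 1 library per group there was no test between the groups, cells are not replicates, and the 95% intervals printed cover counting error alone, with nothing in them for mice or library preparation. Intervals of levels and ratios treat UMIs as independent, so the spread of a gene between cells is not in them either. What differs between the 2 libraries as libraries and what B12 did cannot be told apart. Of each pair of values the first is from the low-B12 library. CPM is the number of unique molecular identifiers (UMIs) of a gene per 1000000 UMIs of a cell class. Since a 3′ UMI counts molecules and not read length, CPM of different genes can be set side by side without a correction for length.

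Type I interferons bind a receptor of Ifnar1 and Ifnar2 chains on nearly every cell, and the kinases Jak1 and Tyk2 then activate transcription factors, Stat2 among them. Stat2 and Irf9 are part of a complex that binds the interferon-stimulated response element (ISRE) in the promoters of target genes. The products of these genes sense foreign nucleic acid, block viral translation and budding or degrade RNA, and some, such as Irf7 and Usp18, strengthen or dampen the pathway itself. Many of them are transcribed at a low level without infection, in myeloid cells of the spleen as elsewhere.

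Cells were put into 5 classes by few genes each. Neutrophils had at least 5% of their UMIs from S100a8 and S100a9, B cells at least 3 UMIs of Cd79a and Cd79b, NK cells at least 2 UMIs of Ncr1 and Klrb1c, conventional dendritic cells (cDC) at least 3 UMIs of Cd209a, Clec10a and Flt3, and monocytes at least 2 UMIs of Csf1r, taken in this order. The classes held 942 and 2672 neutrophils, 1264 and 842 monocytes, 946 and 844 NK cells, 1853 and 673 B cells and 479 and 403 cDC of the 6510 and 6748 cells. Such a class is a range cut from counts and not a type, and 140 and 255 cells had between 4 and 6% of S100a8 and S100a9 UMIs, while 266 and 228 monocytes, 102 and 57 cDC, 61 and 48 NK cells and 23 and 13 B cells lay at the lowest count allowed. At 100 CPM or more were 8 of 8 neutrophil, 7 of 7 NK and 6 of 6 B cell markers in their class in both libraries, 7 and 6 of 8 monocyte markers, and 4 of 7 cDC markers. Itgam, which encodes CD11b, was found in 81.5 and 82.0% of neutrophils and 41.9 and 38.2% of B cells, and Ptprc, which encodes CD45, in at least 97.3% of cells of each class. Median depth per cell was 3100.5 and 3530 UMIs in neutrophils, 7954.5 and 9175 in monocytes, 4216.5 and 4478 in NK cells, 6048 and 6443 in B cells and 10189 and 10566 in cDC. Doublets were kept, and Scrublet called 475 (7.30%) and 329 (4.88%) cells as such. The libraries shared 4 of 13254 cell barcodes.

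Before the values, the promoters show what the members have in common in sequence. RefSeq promoter windows in GRCm38.p6, from 250 bases before to 50 after each annotated start, were at hand for 28 of the 36 genes. The core of the ISRE, searched as GAAA, any 2 bases and GAAA on both strands, was in a window of 15 of these 28 genes (53.6%), against 3.99% of all 27025 genes with windows of this length. Of 24 ISRE matches, 17 began within 150 bases before the start. A match is a stretch of letters and was not shown here to be a bound site. Among the genes with windows, the 3 most abundant members that hold the ISRE core are shown first, and Isg15, chosen after its values were seen, is added for its run of 3 overlapping matches, with the matches in capitals. Ifi203 (chr1:173942443-173942742, minus strand) and Trim30a (chr7:104465144-104465443, minus strand) hold 1 match in the window shown, at 35 and 36 bases before the start, that of Trim30a on the opposite strand of the gene, and Bst2 (chr8:71537423-71537722, minus strand) holds 2 overlapping matches at 130 and 124 bases before the start. Those of Isg15 (chr4:156200769-156201068, minus strand) begin 78, 72 and 66 bases before it.
Ifi203: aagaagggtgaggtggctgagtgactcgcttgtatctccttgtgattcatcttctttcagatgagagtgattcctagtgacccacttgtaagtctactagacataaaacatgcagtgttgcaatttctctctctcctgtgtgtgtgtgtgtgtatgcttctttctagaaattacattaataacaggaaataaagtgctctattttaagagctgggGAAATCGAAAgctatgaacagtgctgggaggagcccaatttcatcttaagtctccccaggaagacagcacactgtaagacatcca
Trim30a: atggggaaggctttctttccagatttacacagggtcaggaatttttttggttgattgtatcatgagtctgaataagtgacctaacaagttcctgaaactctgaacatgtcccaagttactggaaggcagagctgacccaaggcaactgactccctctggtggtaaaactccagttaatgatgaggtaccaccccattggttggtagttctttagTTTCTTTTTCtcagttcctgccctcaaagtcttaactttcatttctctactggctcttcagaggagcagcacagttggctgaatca
Bst2: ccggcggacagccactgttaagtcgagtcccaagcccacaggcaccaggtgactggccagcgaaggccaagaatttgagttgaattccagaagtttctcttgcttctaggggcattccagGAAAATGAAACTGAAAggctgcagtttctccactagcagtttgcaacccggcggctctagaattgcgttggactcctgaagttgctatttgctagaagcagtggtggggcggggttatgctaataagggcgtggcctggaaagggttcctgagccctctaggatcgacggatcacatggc
Isg15: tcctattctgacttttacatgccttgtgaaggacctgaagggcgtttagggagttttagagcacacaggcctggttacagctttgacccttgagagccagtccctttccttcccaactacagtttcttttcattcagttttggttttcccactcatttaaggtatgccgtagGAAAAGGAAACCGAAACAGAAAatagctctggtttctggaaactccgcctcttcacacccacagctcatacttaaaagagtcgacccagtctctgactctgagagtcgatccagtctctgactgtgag
The windows of Ifi209 (chr1:173630609-173630908, plus strand) and Slfn4 (chr11:83174936-83175235, plus strand), the most abundant of these genes without the core, are shown for contrast. A window without this exact string was not shown to lack the element, and that of Ifi209 holds taaatcgaaa, close to the Ifi203 match.
Ifi209: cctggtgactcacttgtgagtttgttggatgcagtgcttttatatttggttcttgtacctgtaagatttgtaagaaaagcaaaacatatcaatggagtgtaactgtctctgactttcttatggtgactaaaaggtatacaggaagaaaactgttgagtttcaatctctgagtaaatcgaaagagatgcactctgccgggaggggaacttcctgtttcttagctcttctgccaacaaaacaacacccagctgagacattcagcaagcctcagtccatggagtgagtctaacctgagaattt
Slfn4: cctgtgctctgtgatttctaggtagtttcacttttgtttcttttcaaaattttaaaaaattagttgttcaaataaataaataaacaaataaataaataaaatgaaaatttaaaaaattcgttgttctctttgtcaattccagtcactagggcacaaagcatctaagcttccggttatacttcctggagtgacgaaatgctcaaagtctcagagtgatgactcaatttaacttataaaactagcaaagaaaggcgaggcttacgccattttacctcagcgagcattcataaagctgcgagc

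The members differed in which class held most of their RNA. In both libraries 15 of 36 members were highest in monocytes, 8 in neutrophils, 6 in cDC, 3 in NK cells and 1 in B cells, and the leading class of the other 3 differed between the libraries. Ifi27l2a, a small interferon-induced mitochondrial protein gene (ENSMUSG00000079017, chr12:103442167-103443680 in GRCm38), was the most abundant member in every class but NK cells, at 1459 and 2362 CPM in monocytes, 753 and 1158 CPM in cDC, 359 and 530 CPM in B cells, 255 and 472 CPM in neutrophils and 119 and 69.0 CPM in NK cells. The order of the 5 classes was the same in both libraries, and no neighbours in it overlapped in their counting intervals. Without doublet calls, however, B cells and neutrophils of the high-B12 library stood at 433 and 438 CPM, in the opposite order. It made up 44.3 and 49.3% of all member UMIs in monocytes and 22.1 and 28.8% in neutrophils, so sums over the members are given with and without it. The neutrophil-leaning members were Slfn4, Trim30a, Oasl2, Ddx60, Rsad2, Oas3, Isg20 and Cmpk2, while Ifi203 leaned to B cells and Oasl1, Ifit1 and Ifi47 to NK cells.

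**Figure D1:**
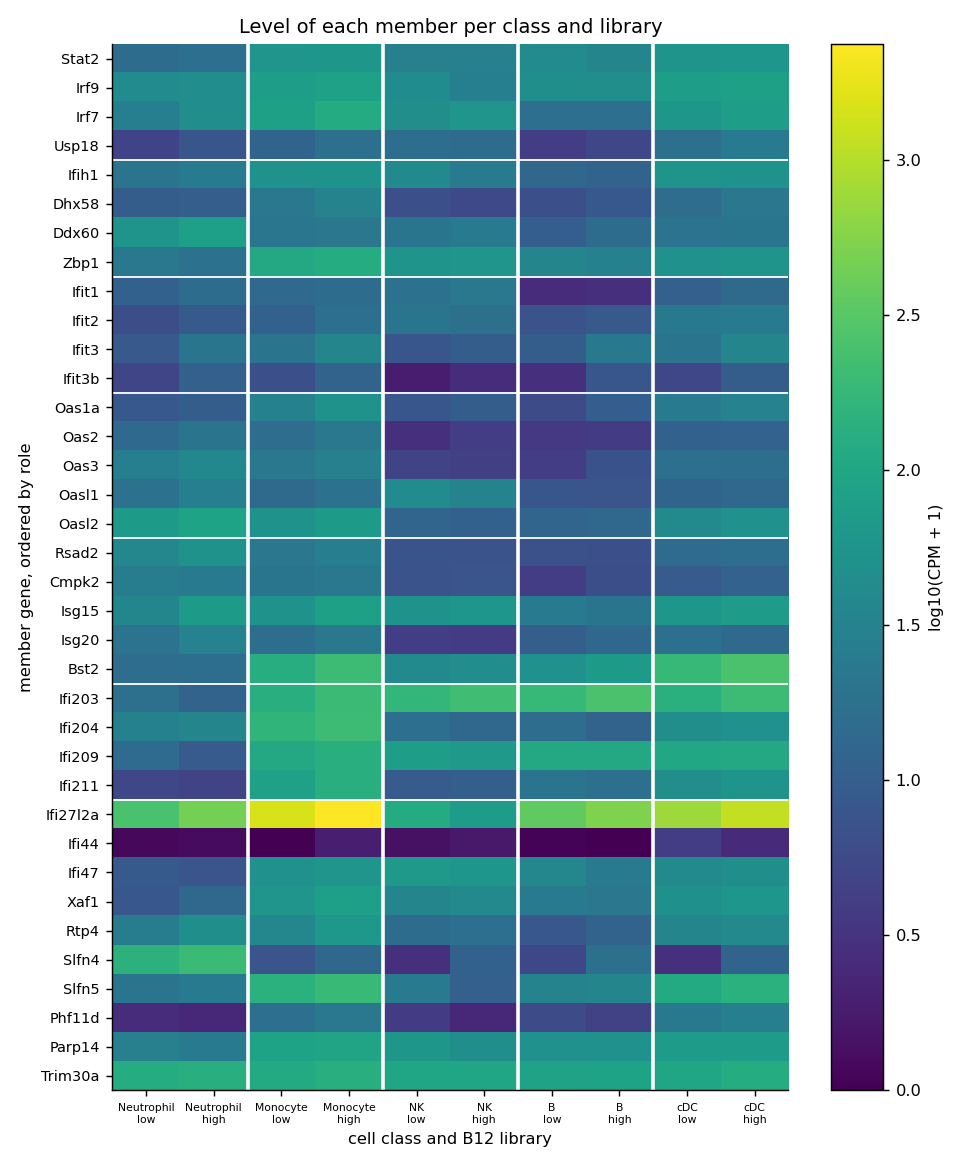
Level of each of the 36 members, as log10(CPM + 1), in the 5 cell classes of both libraries, with the members ordered by role and white lines between roles and classes. Ifi27l2a is the brightest gene in monocytes and cDC, Slfn4 stands out in neutrophils, and Ifi44 is near 0 throughout.

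Member RNA was higher in the high-B12 library in neutrophils, monocytes and cDC, less so in B cells, and not in NK cells. Summed over the members, neutrophils had 1157 and 1640 CPM, a ratio of 1.42 (1.38 to 1.46), and monocytes 3296 and 4791 CPM, a ratio of 1.45 (1.43 to 1.48). In cDC the sums were 2294 and 3047 CPM (1.33, 1.30 to 1.36) and in B cells 1237 and 1514 CPM (1.22, 1.19 to 1.26). NK cells had 1159 and 1107 CPM, a ratio of 0.955 (0.918 to 0.993), which came to 1.02 without the cells called doublets and to 1.03 under scaling to the genes' median ratio, so no direction is read from it. Without Ifi27l2a the ratios were 1.30 in neutrophils, 1.32 in monocytes, 1.23 in cDC, 1.12 in B cells and 0.998 in NK cells.

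Counts of members followed the sums. A member was measured in a class when it had at least 50 UMIs there over both libraries. In monocytes 34 of 35 measured members had the higher CPM in the high-B12 library, against 40.5% of all 10189 genes measured there. A ratio of 1.5 or more was reached by 12 members, against 2.75% of genes, and 0 members were lower by as much, against 5.26% of genes. In neutrophils 27 of 34 members were higher, against 23.7% of 9896 genes, with 10 at 1.5-fold or more, against 1.95%, and 2 lower by as much, against 16% of genes. In cDC 32 of 35 were higher, against 39.3% of 9332 genes, with 5 at 1.5-fold or more, against 2.22%, and 0 lower by as much, against 5.97%. In B cells 20 of 34 were higher, against 34.6% of 10883 genes, and under median-ratio scaling 25 were, against 50% of genes. There were 7 at 1.5-fold or more, against 2.91%, and 1 lower by as much, against 8.83%. In NK cells 16 of 29 were higher, against 37.4% of 9462 genes, with 1 at 1.5-fold or more, against 2.2%, and 4 lower by as much, against 7.5%. That 1 member was Slfn4, which is also among the 12, 5 and 7 of monocytes, cDC and B cells. Its low counts in these classes are set beside free RNA further on.

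Counting error was smaller than the difference for many of these. An interval wholly above a ratio of 1 was found for 26 members in monocytes, against 12.9% of genes, 18 in neutrophils, against 5.55%, 16 in cDC, against 7.96%, 11 in B cells, against 9.28%, and 3 in NK cells, against 9.15%. An interval wholly below 1 was found for 0 members in monocytes, against 25.1% of genes, 2 in neutrophils, against 37.8%, 0 in cDC, against 18.8%, 3 in B cells, against 26.2%, and 7 in NK cells, against 23.9%. In NK cells both shares of members lay near those of all genes, at 3 and 7 of 29.

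The members' median log2 ratios stood against a small shift of all genes. They were 0.42 in neutrophils, where the median of all genes was −0.21, 0.43 in monocytes (all genes −0.08), 0.27 in cDC (−0.08), 0.13 in B cells (−0.12) and 0.02 in NK cells (−0.11). Scaling by the median ratio of genes therefore adds 0.21 to every log2 ratio in neutrophils, 0.12 in B cells and 0.11 in NK cells. Of the 28 members measured in all 5 classes, 8 were higher in the high-B12 library in all of them, against 4.34% of 8043 genes. These were Ifit3, Irf7, Oas1a, Bst2, Rtp4, Trim30a, Ddx60 and Slfn4, of which Slfn4 had low counts outside neutrophils that are set beside free RNA further on.

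**Figure D2:**
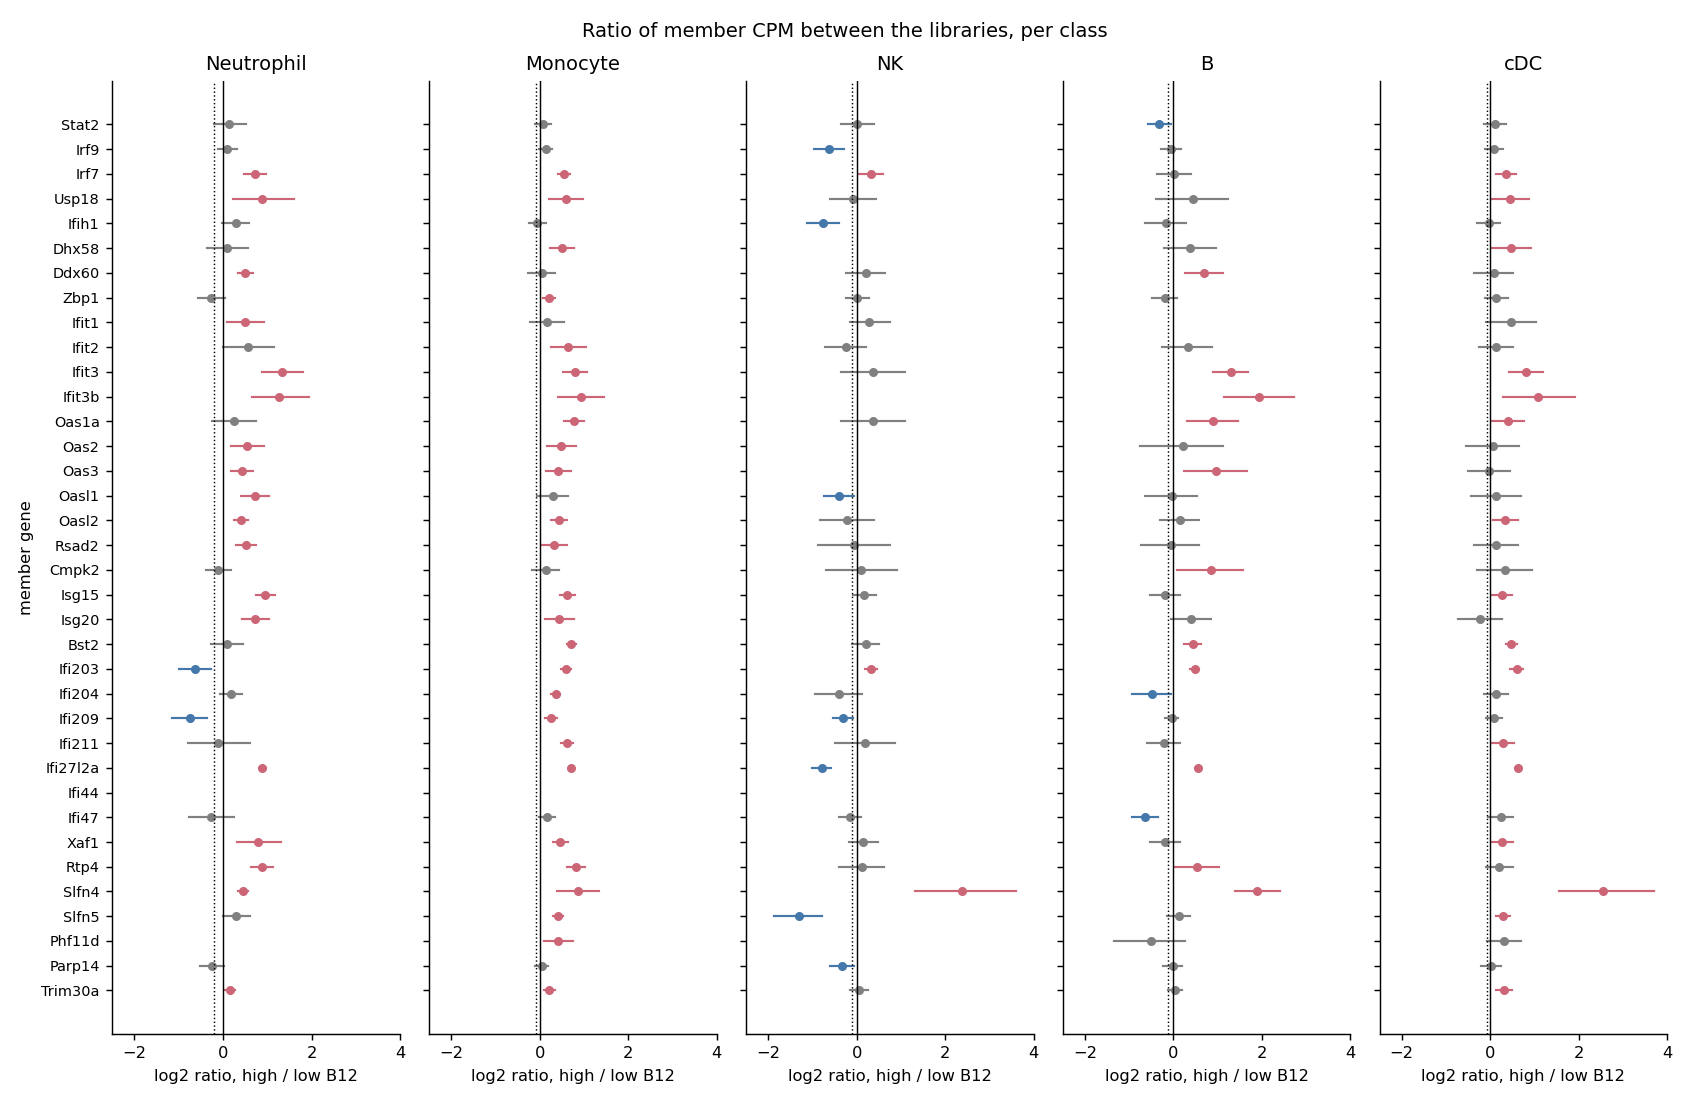
The log2 ratio of CPM between the libraries, positive where the high-B12 library is higher, for each member measured in each class, with exact counting intervals (bars), and with the median of all genes of the class as a dotted line. Red marks intervals above 1 and blue intervals below 1, and a member under 50 UMIs has no point. In monocytes 26 of 35 intervals lie above a ratio of 1 and none below it, while in NK cells 3 lie above and 7 below.

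Among the signalling members, the factor gene Irf7 was higher in the high-B12 library by more than counting error in each class but B cells. Irf7, which amplifies interferon production and response, was at 82.1 and 119 CPM in monocytes, a ratio of 1.45 (1.32 to 1.60), and at 27.7 and 45.6 CPM in neutrophils, a ratio of 1.64 (1.39 to 1.95). Its ratio was 1.28 (1.10 to 1.5) in cDC and 1.253 (1.04 to 1.52) in NK cells, from 44.9 and 56.3 CPM in the latter. The intervals of Stat2 and Irf9, subunits of the complex that binds the ISRE, held a ratio of 1 in neutrophils, monocytes and cDC, with ratios between 1.05 and 1.11. Irf9 was 1.54-fold lower with high B12 in NK cells (1.22 to 1.95), and Stat2 was lower in B cells, at a ratio of 0.801 (0.669 to 0.956). Usp18, a feedback inhibitor at the receptor, was at 3.80 and 7.0 CPM in neutrophils, a ratio of 1.84 (1.17 to 3.02), and is named here after its values were seen. Summed over the 4 genes the ratio was 1.29 (1.17 to 1.43) in neutrophils, 1.23 (1.16 to 1.31) in monocytes and 1.15 (1.06 to 1.26) in cDC. The cDC ratio was 0.987 thinned to 500 UMIs, 1.12 without doublet calls and 1.22 with median-ratio scaling, so its direction was not stable.

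The nucleic acid sensors had ratios nearer to 1. Their summed ratio was 1.12 (1.05 to 1.2) in monocytes, 1.07 (0.965 to 1.2) in cDC and 1.23 (1.13 to 1.35) in neutrophils. In neutrophils most of this lay in Ddx60, a helicase gene of the RIG-I pathway, at 55.3 and 78.5 CPM, a ratio of 1.42 (1.26 to 1.60), whereas the other 3 sensor genes had intervals that held 1. Ifih1, which encodes the RNA sensor MDA5, was at 40.6 and 24.0 CPM in NK cells, 1.69-fold lower with high B12 (1.32 to 2.17), and its interval held 1 in the other 4 classes. Zbp1, a sensor of Z-form nucleic acid, was level in NK cells at 55.3 and 55.8 CPM.

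The Ifit genes, whose products bind viral RNA and the translation machinery, had summed ratios above 1 by more than counting error in neutrophils, monocytes, B cells and cDC. In B cells without doublet calls their ratio was 1.95, beside 2.04 for the OAS family, so their rank among the roles is not read. Their sum was 27.6 and 52.0 CPM in neutrophils, a ratio of 1.89 (1.60 to 2.24), 48.0 and 74.4 CPM in monocytes (1.55, 1.37 to 1.75), 18.8 and 38.5 CPM in B cells (2.05, 1.69 to 2.49) and 55.2 and 80.1 CPM in cDC (1.45, 1.24 to 1.70). Ifit3 carried much of this. It was at 7.76 and 19.5 CPM in neutrophils, a ratio of 2.52 (1.85 to 3.49), from 47 and 329 UMIs, and at 18.9 and 32.9 CPM in monocytes, a ratio of 1.74 (1.43 to 2.11). In B cells it was at 8.90 and 21.8 CPM (2.45, 1.87 to 3.2) and in cDC at 18.9 and 33.2 CPM (1.75, 1.35 to 2.29). Few cells held much of this RNA, and the intervals do not cover that. Ifit3 was found in 2.55 and 4.23% of neutrophils. The 10 cells with most Ifit3 held 70.2 and 34.7% of its UMIs in neutrophils, 37.3 and 44.0% in monocytes, 21.7 and 53.7% in B cells and 42.4 and 51.7% in cDC. Its near copy Ifit3b, from which reads may not be told apart with certainty, was at 4.13 and 9.97 CPM in neutrophils, 5.69 and 10.8 CPM in monocytes and 1.85 and 7.06 CPM in B cells, with ratios of 2.42, 1.90 and 3.81. Ifit1 and Ifit2 had lower ratios, between 1.10 and 1.56 in neutrophils, monocytes and cDC. In NK cells the sum of the Ifit genes was 44.7 and 48.3 CPM, with an interval of the ratio from 0.886 to 1.32.

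The OAS family makes or resembles the enzymes of oligoadenylates, which switch on the nuclease RNase L. Its sum had a ratio of 1.38 (1.27 to 1.49) in neutrophils, 1.42 (1.32 to 1.53) in monocytes and 1.19 (1.05 to 1.35) in cDC. In neutrophils this ratio was 1.16 thinned to 500 UMIs, 1.22 with cells weighted alike and 1.60 with median-ratio scaling. Which gene had the highest ratio differed between the classes. In monocytes it was Oas1a, one of several close Oas1 copies in the mouse, at 29.5 and 50.7 CPM, a ratio of 1.72 (1.47 to 2.01). In neutrophils it was Oasl1, an inhibitor of Irf7 translation, at 17.0 and 28.0 CPM, a ratio of 1.65 (1.33 to 2.06), while the more abundant Oasl2 was at 66.9 and 88.7 CPM, a ratio of 1.33 (1.19 to 1.48).

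Of the antiviral effectors, Isg15 was higher with high B12 in both neutrophils and monocytes, and Bst2 in monocytes, cDC and B cells. Isg15, the ubiquitin-like modifier whose promoter is shown above (ENSMUSG00000035692, chr4:156199424-156200818), was at 34.8 and 67.4 CPM in neutrophils, a ratio of 1.94 (1.67 to 2.25), and at 53.0 and 81.7 CPM in monocytes, a ratio of 1.54 (1.37 to 1.73). Bst2, the tetherin gene that holds budding virus at the cell surface (ENSMUSG00000046718, chr8:71534255-71537456), was at 126 and 207 CPM in monocytes (1.64, 1.52 to 1.77), 180 and 250 CPM in cDC (1.39, 1.28 to 1.52) and 50.1 and 67.8 CPM in B cells (1.35, 1.18 to 1.54). In neutrophils Bst2 was low and its interval held 1. Isg20, an exonuclease gene, was at 18.2 and 30.2 CPM in neutrophils, a ratio of 1.66 (1.35 to 2.06). The nucleotide-pathway gene Cmpk2 and its neighbour Rsad2, the viperin gene, are named after their values were seen. Their ratios in neutrophils were 0.931 (0.771 to 1.13) and 1.43 (1.23 to 1.67). Thinned to 2000 UMIs per cell, neutrophils had a mean of 0.153 and 0.160 Rsad2 UMIs, so little of its difference was left. At full depth 10 cells held 38.6 and 18.2% of the Rsad2 UMIs of neutrophils. Summed over the 5 effectors the ratio was 1.46 in neutrophils, 1.52 in monocytes and 1.30 in cDC. Thinned to 500 UMIs these sums came to 1.13, 1.74 and 1.01, and with cells weighted alike to 1.35, 1.57 and 1.33.

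The PYHIN genes, relatives of the DNA sensor AIM2, had higher sums in the high-B12 library in monocytes, cDC and B cells. In NK cells the PYHIN sum was slightly higher, at 274 and 300 CPM (1.09, 1.01 to 1.18), and in neutrophils it had no stable direction. In B cells and cDC the ratios were 1.19 (1.13 to 1.26) and 1.28 (1.19 to 1.36). Their sum was 485 and 662 CPM in monocytes, a ratio of 1.36 (1.31 to 1.42), with Ifi203 at 133 and 201 CPM, Ifi211 at 84.6 and 129 CPM and Ifi204 at 159 and 204 CPM, all with intervals above 1. Ifi203 was also higher in the other classes that held it at a high level, at 137 and 207 CPM in cDC (1.51, 1.37 to 1.67), 182 and 255 CPM in B cells (1.40, 1.31 to 1.5) and 172 and 215 CPM in NK cells (1.254, 1.14 to 1.38). In neutrophils the sum was 64.6 and 56.4 CPM, a ratio of 0.873 (0.775 to 0.985), which came to 1.01 when scaled by the median ratio, 1.18 with cells weighted alike and 1.14 without doublet calls, so no direction is read from it. Ifi209 there was at 14.0 and 8.31 CPM, and Ifi203, named after its values were seen, at 16.7 and 10.8 CPM, the 2 members lower by 1.5-fold or more. Cells called doublets held 69.3 and 68.7% of the Ifi203 UMIs of neutrophils and 70.6 and 66.4% of those of Ifi209. Without these cells the log2 ratios were −0.74 for Ifi203 and −0.71 for Ifi209, where they had been −0.63 and −0.76. The B cell marker list moved with them in that class, at 453 and 174 CPM with 6 of 6 markers detected, and so did the cDC list, at 668 and 366 CPM with 7 of 7 detected, and their part in the result was not tested. These genes are close copies on chromosome 1, so reads may be split among them.

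Of the remaining members, several were higher with high B12 in both neutrophils and monocytes. Ifi27l2a had a ratio of 1.85 (1.75 to 1.96) in neutrophils, 1.62 (1.58 to 1.65) in monocytes, 1.54 (1.48 to 1.60) in cDC and 1.48 (1.41 to 1.55) in B cells. Cells called doublets held 37.8 and 18.8% of its UMIs in neutrophils, and without them it was at 201 and 438 CPM there. Rtp4, a receptor transporter gene, was at 25.3 and 46.3 CPM in neutrophils and 35.1 and 62.2 CPM in monocytes, with ratios of 1.83 (1.54 to 2.19) and 1.77 (1.54 to 2.04). Xaf1, a gene linked to cell death, was at 7.27 and 12.6 CPM in neutrophils, a ratio of 1.74 (1.253 to 2.47). Trim30a, a dampener of inflammatory signalling, was at 114 and 132 CPM in monocytes and 121 and 134 CPM in neutrophils, with ratios of only 1.16 and 1.11. Slfn5 was at 140 and 186 CPM in monocytes (1.33, 1.23 to 1.43) and 116 and 142 CPM in cDC (1.23, 1.09 to 1.37). Ifi47, a GTPase gene, went the other way in B cells, at 36 and 23.2 CPM, 1.55-fold lower (1.26 to 1.92), and was at 64.1 and 58.2 CPM in NK cells with an interval that held 1. Parp14 and Phf11d had no interval above 1 except Phf11d in monocytes, and Ifi44 had fewer than 50 UMIs in each class.

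Slfn4, a myeloid Schlafen gene (ENSMUSG00000000204, chr11:83175186-83190216), was highest in neutrophils. It was at 147 and 201 CPM in neutrophils, a ratio of 1.37 (1.27 to 1.47). In the other classes it was low and its ratio was high, at 1.94 and 10.1 CPM in NK cells, 4.38 and 16.3 CPM in B cells, 1.91 and 11.2 CPM in cDC and 6.87 and 12.4 CPM in monocytes, or 5.20-, 3.73-, 5.87- and 1.81-fold. RNA outside cells moved with these values, since empty droplets with 10 to 100 UMIs held Slfn4 at 64.3 and 259 CPM. If all S100a8 and S100a9 UMIs of NK cells were free RNA, it would give 1.59 and 6.55 CPM of Slfn4 there, and in B cells 4.01 and 9.84 CPM. Doublet calls held 91.5 and 91.4% of the Slfn4 UMIs of B cells. The same free RNA would give all members together 49.7 and 65.0 CPM in NK cells, out of 1159 and 1107 CPM.

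In NK cells Ifi27l2a and Slfn5 were lower with high B12, and cells called doublets held much of their RNA. Ifi27l2a was at 119 and 69.0 CPM there, 1.73-fold lower with high B12 (1.5 to 2.0), and Slfn5 at 24.4 and 9.86 CPM, 2.47-fold lower (1.72 to 3.63). Cells called doublets, 63 and 40 of the class, held 89.5 and 76.3% of these Ifi27l2a UMIs and 83.2 and 46.3% of those of Slfn5. Without these cells the log2 ratios were 0.26 for Ifi27l2a and 0.25 for Slfn5, where they had been −0.79 and −1.31. The cDC marker list in the NK class was at 843 and 401 CPM with 7 of 7 markers detected, and the monocyte list at 1146 and 996 CPM with 8 of 8 detected, and their part in these values was not tested. Ifi27l2a UMIs were found in 8.35 and 8.29% of NK cells, against 80.1 and 88.7% of monocytes.

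The next question was whether a few strong cells or many cells carried the difference. In the deposited depth 42.7 and 54.5% of neutrophils had at least 5 member UMIs, 83.5 and 90.6% of monocytes, 91.9 and 95.5% of cDC, 60.0 and 68.1% of B cells and 40.4 and 39.8% of NK cells. With every cell thinned to 2000 UMIs, which leaves out 98 and 171 shallower neutrophils, 37 and 33 monocytes, 39 and 54 NK cells, 15 and 10 B cells and 1 and 0 cDC, the shares were 18.4% (15.8 to 21.1) and 30.3% (28.5 to 32.1) of neutrophils. In monocytes they were 52.0% (49.2 to 54.8) and 69.8% (66.5 to 73.0), in cDC 38.1% (33.7 to 42.6) and 51.4% (46.4 to 56.3), and in B cells 10.4% (9.08 to 11.9) and 17.8% (15.0 to 20.9). In NK cells they were 9.92% (8.05 to 12.1) and 8.73% (6.86 to 10.9), whose intervals overlap. At 500 UMIs per cell the shares were 4.03 and 6.06% of neutrophils and 5.46 and 15.3% of monocytes.

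**Figure D3:**
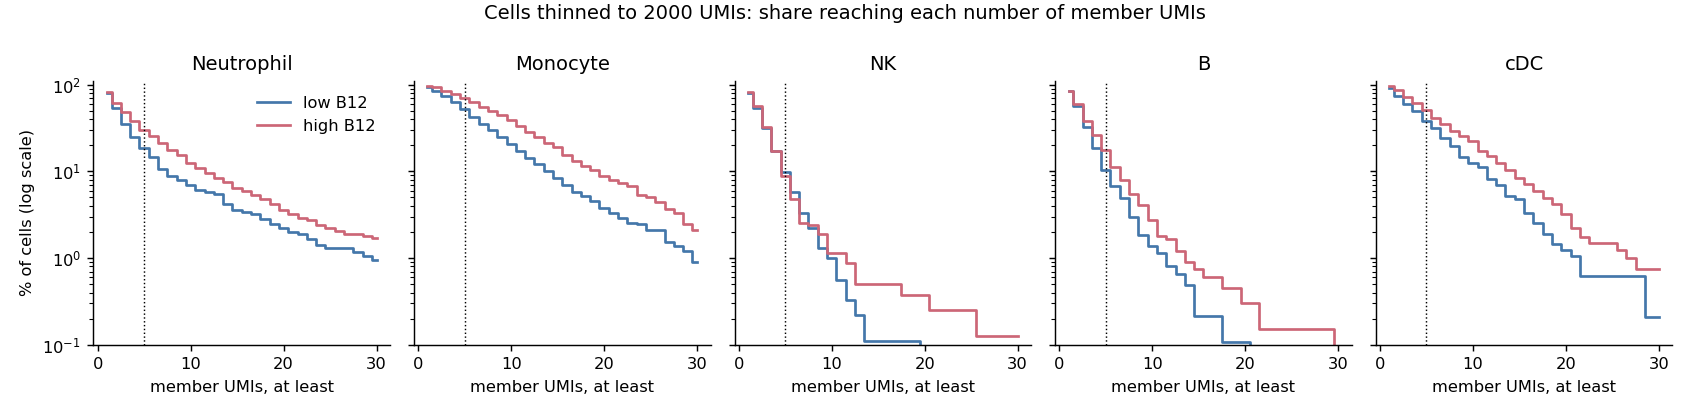
Share of cells, on a log scale, that reach each number of member UMIs (horizontal axis) after every cell was thinned to 2000 UMIs, for the 5 classes and both libraries, with 5 UMIs as a dotted line. The high-B12 curve lies above the low-B12 curve along the whole range in monocytes, with 69.8 against 52.0% at 5 UMIs, and the curves cross in NK cells.

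In monocytes thinned to 2000 UMIs the difference was spread over the cells, with a lower quartile of 2 and 4 member UMIs and a median of 5 and 7. In neutrophils it lay in the upper part of the cells. Their median was 2 member UMIs in both libraries, and 20.9 and 18.2% of them had none. Their upper quartile was 3 and 6 member UMIs, and 6.99 and 12.6% of them had at least 10. In neutrophils thinned to 2000 UMIs, the 10% of cells with most member UMIs had a mean of 15.6 and 21.5 member UMIs, a ratio of 1.38, and the other 90% a mean of 1.86 and 2.82, a ratio of 1.52. In monocytes the means were 19.97 and 27.1 (1.36) in the top 10% and 4.81 and 7.33 (1.53) in the rest. The same 2 ratios were 1.26 and 1.38 in cDC and 1.26 and 1.18 in B cells. Added cells of high count also raise the mean of the other 90%. These ratios alone therefore cannot tell a shift of all cells from more cells with high counts. Cells with at least 2 Ifit UMIs were chosen as strong cells, and made up similar shares of neutrophils, at 2.25% (19 of 844, 1.36 to 3.49) and 2.28% (57 of 2501, 1.73 to 2.94). Among monocytes they were 1.63% (20 of 1227, 0.998 to 2.51) and 2.72% (22 of 809, 1.71 to 4.09).

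These strong cells held the other 32 members at a level far above the rest, in both libraries. In neutrophils the 32 genes were at 10316 and 13474 CPM in cells with at least 2 Ifit UMIs and at 1312 and 1873 CPM in cells with none, the latter a ratio of 1.43 (1.36 to 1.5) between the libraries. In monocytes they were at 11175 and 14000 CPM in the strong cells and 2883 and 4139 CPM in those with none, a ratio of 1.44 (1.39 to 1.49). In NK cells without an Ifit UMI they were at 972 and 991 CPM, a ratio of 1.02 (0.949 to 1.09). Strong NK cells, 17 and 11 in number, had a ratio of 1.99 (1.41 to 2.82). In B cells the ratio was 1.14 (1.07 to 1.21) without an Ifit UMI. It was 3.32 (1.95 to 5.98) in strong B cells, only 5 and 7 in number. In cDC the 2 ratios were 1.42 (1.33 to 1.51) and 0.908 (0.709 to 1.16), the latter from 13 and 9 strong cells. The strong cells held 14.8 and 13.5% of all UMIs of these 32 genes in neutrophils and 5.84 and 8.32% in monocytes.

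**Figure D4:**
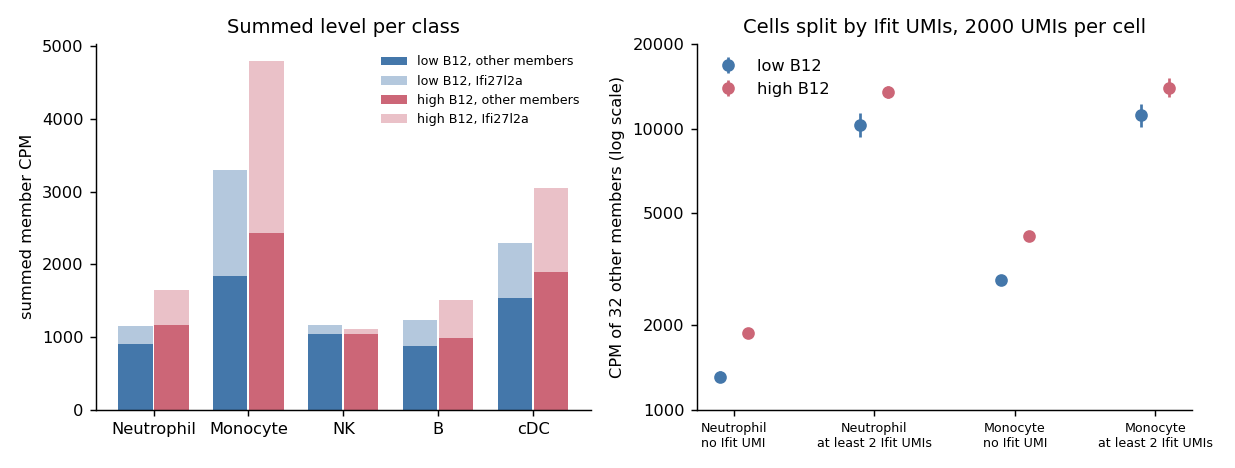
Left, summed CPM of the members per class and library, with Ifi27l2a in the lighter part of each bar. Right, CPM (log scale) of the 32 members outside the Ifit genes in neutrophils and monocytes with no or with at least 2 Ifit UMIs after thinning to 2000 UMIs, with Poisson counting intervals. The high-B12 points lie above the low-B12 points in all 4 groups of cells, at 1873 against 1312 CPM in neutrophils without an Ifit UMI.

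By raw UMI counts per cell, the make-up of 2 classes differed between the libraries, and members were compared within their parts. These counts were not thinned, and median depth was higher in the high-B12 library in both classes. The part of depth in the shares was not tested. Monocytes with at least 2 UMIs of Ly6c2 and Ccr2, genes of classical monocytes, made up 63.4% (60.7 to 66.1) and 78.4% (75.4 to 81.1) of the class. Within them the summed member ratio was 1.33 and 4 of 35 members reached 1.5-fold, against 2.64% of genes, and 97.8 and 97.1% of these cells had at least 5 member UMIs. These shares, at full depth, are near their ceiling and cannot show a difference. In the other monocytes the ratio was 1.63, with 12 of 28 members past 1.5-fold against 5.77% of genes. Neutrophils with at least 5 UMIs of the secondary granule genes Camp, Ltf, Ngp and Lcn2 made up 43.5% (40.3 to 46.8) and 51.7% (49.8 to 53.6) of theirs. Within them the ratio was 1.39, with 14 of 34 members past 1.5-fold against 2.68% of genes, and in the other neutrophils it was 1.49, with 10 of 30 against 3.95%. Over all neutrophils Camp was at 26250 and 24941 CPM and Ltf at 3747 and 3638 CPM, so the larger share is not read as more granule RNA. Over all monocytes Ly6c2 was at 443 and 714 CPM and Ccr2 at 591 and 765 CPM.

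Other genes of the pathway had intervals on either side of 1. Of 32 such genes, 23 were measured in monocytes, of which 2 had an interval above 1, against 12.9% of all genes, and 10 one below it, against 25.1%. Of 23 in neutrophils, 3 had an interval above 1, against 5.55%, and 9 one below it, against 37.8%, and no more is read from these small counts. In monocytes Irf1, a factor more tied to interferon gamma, was at 201 and 139 CPM, Jak2, a kinase of the gamma receptor, at 68.5 and 48.3 CPM, and the endosomal RNA receptor gene Tlr7 at 112 and 81.0 CPM. Higher were Ddx58, the RIG-I gene and itself an interferon target, at 25.7 and 33.5 CPM (1.30, 1.09 to 1.56), and the inhibitor gene Socs3 at 86.4 and 107 CPM (1.24, 1.12 to 1.36). The receptor gene Ifnar2, named for its role, was level at 191 and 194 CPM, while Ifnar1 was at 62.9 and 54.0 CPM.

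The interferon genes themselves were hardly seen. The 4 Ifna genes of the list had no UMI in 4 of the classes, and Ifna4 had 1 UMI in B cells of the high-B12 library. Ifnb1 had 11 UMIs in monocytes of the low-B12 library and 1 in those of the high-B12 library. Ifng, the interferon of NK cells, was at 282 and 340 CPM there, a ratio of 1.2 (1.12 to 1.30).

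Cells outside the 5 classes, 1026 and 1314 in number, also held more member RNA in the high-B12 library, at 2279 and 3283 summed CPM, a ratio of 1.44 (1.41 to 1.48). In them 16 of 35 measured members were at least 1.5-fold higher, against 7.04% of genes. The Ifit genes were at 42.4 and 90.4 CPM and the OAS family at 101 and 220 CPM, ratios of 2.13 and 2.17, and Irf7 was at 50.03 and 99.4 CPM. The make-up of these cells differed between the libraries. The neutrophil marker list was at 1193 and 2724 CPM, the erythroid list at 28.6 and 678 CPM and the T cell list at 253 and 152 CPM, and their part in the result was not tested.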

How the data were processed

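Per the file headers and values, the deposited matrices hold whole-number UMI counts per gene and barcode, written by Cell Ranger 4, whereas version 2.1.1 stands in the submitters' processing notes, and the genome build behind the counts is not given in the sources used here. No normalization was applied by the authors. Cells had at least 500 UMIs and 200 genes and at most 10% mitochondrial UMIs, and the libraries held 48884220 and 46994991 UMIs. Doublets were called with Scrublet through scanpy 1.11.5 and kept. Counts were summed per class and library and divided by the class total. With 1 library per group no test was made. Intervals were exact Poisson for levels, conditional binomial for ratios and Clopper-Pearson for shares (scipy 1.17.1). The calculation of ratios was run on simulated Poisson counts. These hold no spread between cells, so that run checked the arithmetic and not how well the intervals suit these data. The members and lists were chosen with earlier results of these data known. Genes named per class were the 6 with the highest mean CPM and those whose ratio interval lay wholly above 1.25 or below 0.8. Gene positions are from GENCODE M21. No column of per-sample values was left unused (0). Alternatives changed thinning, doublets, scaling, class rules and filters. One gene of the pathway list, and a motif tied to it, are not reported here.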

Additional observations from a re-analysis of the deposited data

Results flagged for a closer look

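For 6 members, the ratio between the libraries went in opposite directions in 2 cell classes, with both counting intervals off 1. These are 6 of the 35 members measured in at least 2 classes (17.1%), against 8.8% of 10640 genes by the same rule. The differences are log2 ratios of the first class minus the second, and were not tested, since each library was measured once. For Oasl1, neutrophils and NK cells differed by 1.12, at 0.72 and −0.40. For Ifi27l2a they differed by 1.68, at 0.89 and −0.79, and the NK value was 0.26 without doublet calls. For Slfn5, monocytes and NK cells differed by 1.72, at 0.41 and −1.31, and the NK value was 0.25 without doublet calls. For Ifi203, cDC and neutrophils differed by 1.22, at 0.60 and −0.63, and the neutrophil value was −0.74 without doublet calls. For Ifi204, monocytes and B cells differed by 0.84, at 0.36 and −0.48, and the B cell value was −0.11 without doublet calls. For Ifi209, monocytes and neutrophils differed by 1.01, at 0.25 and −0.76, and the neutrophil value was −0.71 without doublet calls and −0.15 with cells weighted alike.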

How the results depend on the processing

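No paired analysis was possible because each group had 1 library. The summed ratio in neutrophils (1.42) was 1.46 thinned to 2000 UMIs, 1.48 without doublet calls, 1.64 with median-ratio scaling, 1.5 without S100a8 and S100a9 in the total, 1.30 without Ifi27l2a and 1.49 in neutrophils with little granule RNA. In monocytes (1.45) it was 1.59 thinned to 500 UMIs, 1.53 with median-ratio scaling, 1.5 with cells weighted alike, 1.32 without Ifi27l2a, and 1.33 and 1.63 in monocytes with and without Ly6c2 or Ccr2. In B cells (1.22) it was 1.39 thinned to 500, 1.27 without doublet calls, 1.33 with median-ratio scaling and 1.12 without Ifi27l2a, and in cDC (1.33) 1.40 and 1.23 under the latter 2. In NK cells (0.955) the direction turned, to 1.13 and 1.05 thinned to 500 and 2000, 1.02 without doublet calls, 1.00 with a 10% neutrophil threshold, 1.03 with median-ratio scaling and 1.03 with cells weighted alike, and was 0.998 without Ifi27l2a.
Members 1.5-fold higher in neutrophils (10 of 34, against 1.95% of genes) came to 6 of 19 measured thinned to 500 (3.4% of genes) and 18 of 34 with median-ratio scaling (4.31%). In NK cells (1 of 29) they were 0 of 6 measured thinned to 500, 2 without doublet calls, 2 with the 10% threshold, 3 with cells weighted alike and 3 with a minimum of 10 UMIs, and thinned to 500 they were 1 of 6 measured in B cells (7 of 34), where 3.79% of genes were, and 2 of 5 in cDC (5 of 35), where 3.85% were, so that fewer members could be counted. The difference in the share of cells with at least 5 member UMIs, in percentage points, was 2.03 thinned to 500, 5.51 with and 16 without granule RNA in neutrophils, 17.8 thinned to 2000, 10.4 without Ifi27l2a and −0.634 with Ly6c2 or Ccr2 in monocytes, 0.149 thinned to 500 in B cells and 13.3 thinned to 2000 in cDC. The value of −0.634 is from full-depth shares near their ceiling, so no direction is read from it. Of the genes named per class, the log2 ratios that turned included Ifi27l2a (0.26) and Slfn5 (0.25) in NK cells without doublet calls. Thinned to 500, they included Ifi209 in NK cells (0.16), Ifi47 in B cells (0.34) and Trim30a in cDC (−0.0023). Ifi209 had small log2 ratios in cDC (0.08) and B cells (−0.04), which also turned thinned to 500, to −0.31 and 0.16. Thinned values of Ifi203 in neutrophils and Ifi204 in B cells also turned, from 1 and 7 and from 9 and 5 UMIs, too few to read. The causes of these changes were not tested.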

Other observations

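Empty droplets, the barcodes with 10 to 100 UMIs, numbered 77371 and 70003 and held the members at 2011 and 2576 summed CPM, a ratio of 1.28. Of 28 members measured there, 21 were at a higher CPM in the high-B12 library, against 41.1% of 6928 genes. S100a8 and S100a9 made up 2.32 and 6.58% of their UMIs.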
